A study of Mus musculus with 8 samples.

Results

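The genes described here are the cytochrome P450 genes of families Cyp1, Cyp2 and Cyp3 outside the Cyp2a and Cyp2b subfamilies, together with Por, in the liver of db/db and lean mice. They were taken by symbol from the deposited expression table: 61 symbols matched these 3 families, 9 Cyp2a and Cyp2b symbols were left out, and Por was added, which gave 53 genes. Of these, 39 reached an FPKM of at least 0.5 in at least 2 of 8 samples, out of 22481 genes in the table, and these 38 P450 genes and Por were kept. FPKM counts fragments per kilobase of transcript and per library size, so levels can be set side by side between genes. The data are RNA sequencing of livers from 4 db/db samples and 4 lean samples, all male, deposited with a study of fatty liver and of RPN11, which removes ubiquitin at the proteasome. The db/db group carries a mutated leptin receptor gene in every cell of the body, and its strain label is only db/db. The lean group is labelled C57BL/6. Age and diet treatment are not given in the sources used here, and food was freely available to both groups. The labels do not name the animal behind each sample, so the spread behind each p-value is that between samples and can be technical in part.

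Microsomal P450 enzymes insert 1 oxygen atom from molecular oxygen into a substrate, at a heme iron held by a conserved cysteine, and take electrons from NADPH through P450 oxidoreductase, the product of Por. In the liver the Cyp1, Cyp2 and Cyp3 families oxidise drugs, pollutants, steroids, bile acids and fatty acids such as arachidonic acid. Many mouse members lie in tandem clusters of near-identical genes, several are made mainly in hepatocytes around the central vein, and several differ between adult males and females.

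The coding DNA around the heme-binding cysteine shows how alike the members are, which matters for how sequenced fragments can be divided among them. Each of the following is the 30-base stretch that encodes the heme-binding loop, from GENCODE M21 transcripts on GRCm38, with the codon of the cysteine in capitals. The loop was found once in 36 of the 38 kept P450 genes, the exceptions being Cyp3a59 and the pseudogene Cyp2d37-ps.
Cyp1a2: ttcggcttgggaaagcgccggTGCattggg
Cyp2e1: ttttctgcaggaaagcgcgtgTGTgttgga
Cyp2c29: ttttcaacaggaaaacggattTGTgctgga
Cyp2c38: ttctcagcaggaaaacgggttTGTgctgga
Cyp2c39: ttctcagcaggaaaacgtgttTGTgctgga
Cyp2c40: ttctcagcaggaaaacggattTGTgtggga
Cyp2c69: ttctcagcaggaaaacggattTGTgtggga
Cyp2c70: ttctcagcaggaagaagagctTGTattgga
Cyp2d9: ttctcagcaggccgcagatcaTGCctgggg
Cyp2d10: ttctcagcaggccgcagatcaTGCctgggt
Cyp3a11: tttgggaatggacccaggaacTGCcttggc
Cyp3a41a: tttggaattggacccaggaacTGCattggc
Cyp3a41b: tttggaattggacccaggaacTGCattggc
Cyp2c40 and Cyp2c69 are identical over this stretch, as are Cyp3a41a and Cyp3a41b. Cyp2c38 and Cyp2c39 differ at 1 base, and so do Cyp2d9 and Cyp2d10. Cyp2c70 differs from Cyp2c29 at 9 bases.

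The likeness extends along the transcripts. Of the 39 kept genes, 20 shared at least 10% of their 50-base windows with another gene and 9 shared none. Cyp3a41a shared 93.7% of its windows with Cyp3a41b, and their coding sequences of 1512 bases differ at 2 bases. Cyp2c40 shared 72.1% of its windows, most of them with Cyp2c69, while Cyp2d9 shared 28.3%. Values of such members depend on how the authors' counting divided fragments, and 16 of the 20 were also tested in sums with related kept genes. Cyp2d26, Cyp2d40, Cyp3a11 and Cyp3a16 shared less than 10% with any single kept gene and were tested alone only. Cyp2c44, Cyp2c70, Cyp2f2, Cyp2g1, Cyp2j9, Cyp2r1, Cyp2u1, Cyp3a13 and Por shared no window. No kept gene overlapped another row of the table by position.

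The depth was 13157724 to 16171661 estimated fragments for db/db and 12174824 to 14978545 for lean libraries. A linear model on log2(FPKM + 1) fitted with limma over 11573 genes called 1744 genes higher and 1222 lower in db/db livers at a Benjamini-Hochberg adjusted p under 0.05. Of 5 tested hepatocyte markers, Apoa1 and Ttr were lower in db/db, with Apoa1 at 588 to 1221 FPKM in db/db livers and at 13473 to 18621 FPKM in lean livers, and Alb was listed at 0 in all 8 samples. The hepatocyte markers Apob, Hnf4a and Cps1 were not called. Summed Kupffer cell markers, 2 of 5 of them lower, had 68.2 to 90.3 FPKM in db/db livers and 89.5 to 145 FPKM in lean livers. Summed sinusoidal endothelial markers, 2 of 6 of them lower, had 63.0 to 66.9 FPKM in db/db livers and 79.5 to 98.3 FPKM in lean livers. Stellate cell markers had 1 of 6 lower, lymphocyte markers 1 of 3 and pancreatic acinar markers 1 of 1, cholangiocyte and neutrophil markers had 0 of 4 called each, and all 5 kidney tubule markers were at 0. Summed neutrophil markers had 2.08 to 11.2 FPKM in db/db livers and 6.47 to 72.8 FPKM in lean livers. Of 2 tested adipocyte markers, Retn was higher, at 1.58, 4.10, 6.89 and 8.36 FPKM in db/db samples 1 to 4, against 0.297, 0.134, 0 and 0 FPKM in lean samples 1 to 4, while Lep was at 0 in all 8 samples and Adipoq and Plin1 stayed under 1 FPKM. Summed adipocyte markers had 2.20 to 8.86 FPKM in db/db livers and 0.489 to 3.38 FPKM in lean livers. Of 2 tested intestinal epithelial markers, Fabp2, a fatty acid binding protein, was higher, with the summed list at 93.5 to 179 FPKM in db/db livers and 62.0 to 105 FPKM in lean livers, and Cdx1 and Cdx2 were at 0. The part of these markers in the results below was not tested. In bulk liver, fewer cells of a type and less RNA per cell cannot be told apart.

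The P450 genes changed in both directions between db/db and lean livers, and their summed level differed little. Of the 39 kept genes, 16 were higher in db/db, 10 were lower and 13 were not called, against 15.1% of all genes tested called higher and 10.6% called lower. That is 41.0% and 25.6% of the kept genes, and 3 of the 39 reached 0.5 FPKM in at least 2 samples of 1 group only (Cyp1a1, Cyp2d11 and Cyp3a41a). Cyp3a16 reached it in 1 sample of each group. Db/db and lean samples did not overlap for 21 kept genes, 14 of them higher and 7 lower in db/db, where 28% of all genes tested did not overlap (16.7% higher and 11.3% lower). On estimated fragments, voom called 14 kept genes higher and 9 lower, with 19.2% and 9.94% of all genes tested called in these directions. The median log2 fold change of the kept genes was 0.12, beside 0.04 over all genes tested. Summed over the 52 P450 genes, FPKM was 12129 ± 1717 in db/db livers and 12418 ± 1271 in lean livers (SD, n = 4 each), which differed by less than the spread between samples.

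Just inside the threshold of the rule lay Cyp1a1 and Cyp3a16, whose second-highest samples had 0.698 and 0.835 FPKM. Just outside lay Cyp3a44 and Cyp1b1, whose second-highest samples had 0.425 and 0.177 FPKM. Of the 14 genes not kept, 7 were listed at 0 in all 8 samples: Cyp2c66, Cyp2j11, Cyp2j12, Cyp2j13, Cyp2j7-ps, Cyp2t4 and Cyp2w1. Beside Cyp3a44 and Cyp1b1, the remaining 5, Cyp2c65, Cyp2d34, Cyp2j8, Cyp2s1 and Cyp3a57, stayed under 0.5 FPKM in every sample. The positions listed for Cyp2t4 and Cyp2w1 were shared by 2 and 16 rows. Whether their values of 0 mean no RNA was not tested.

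**Figure D1:**
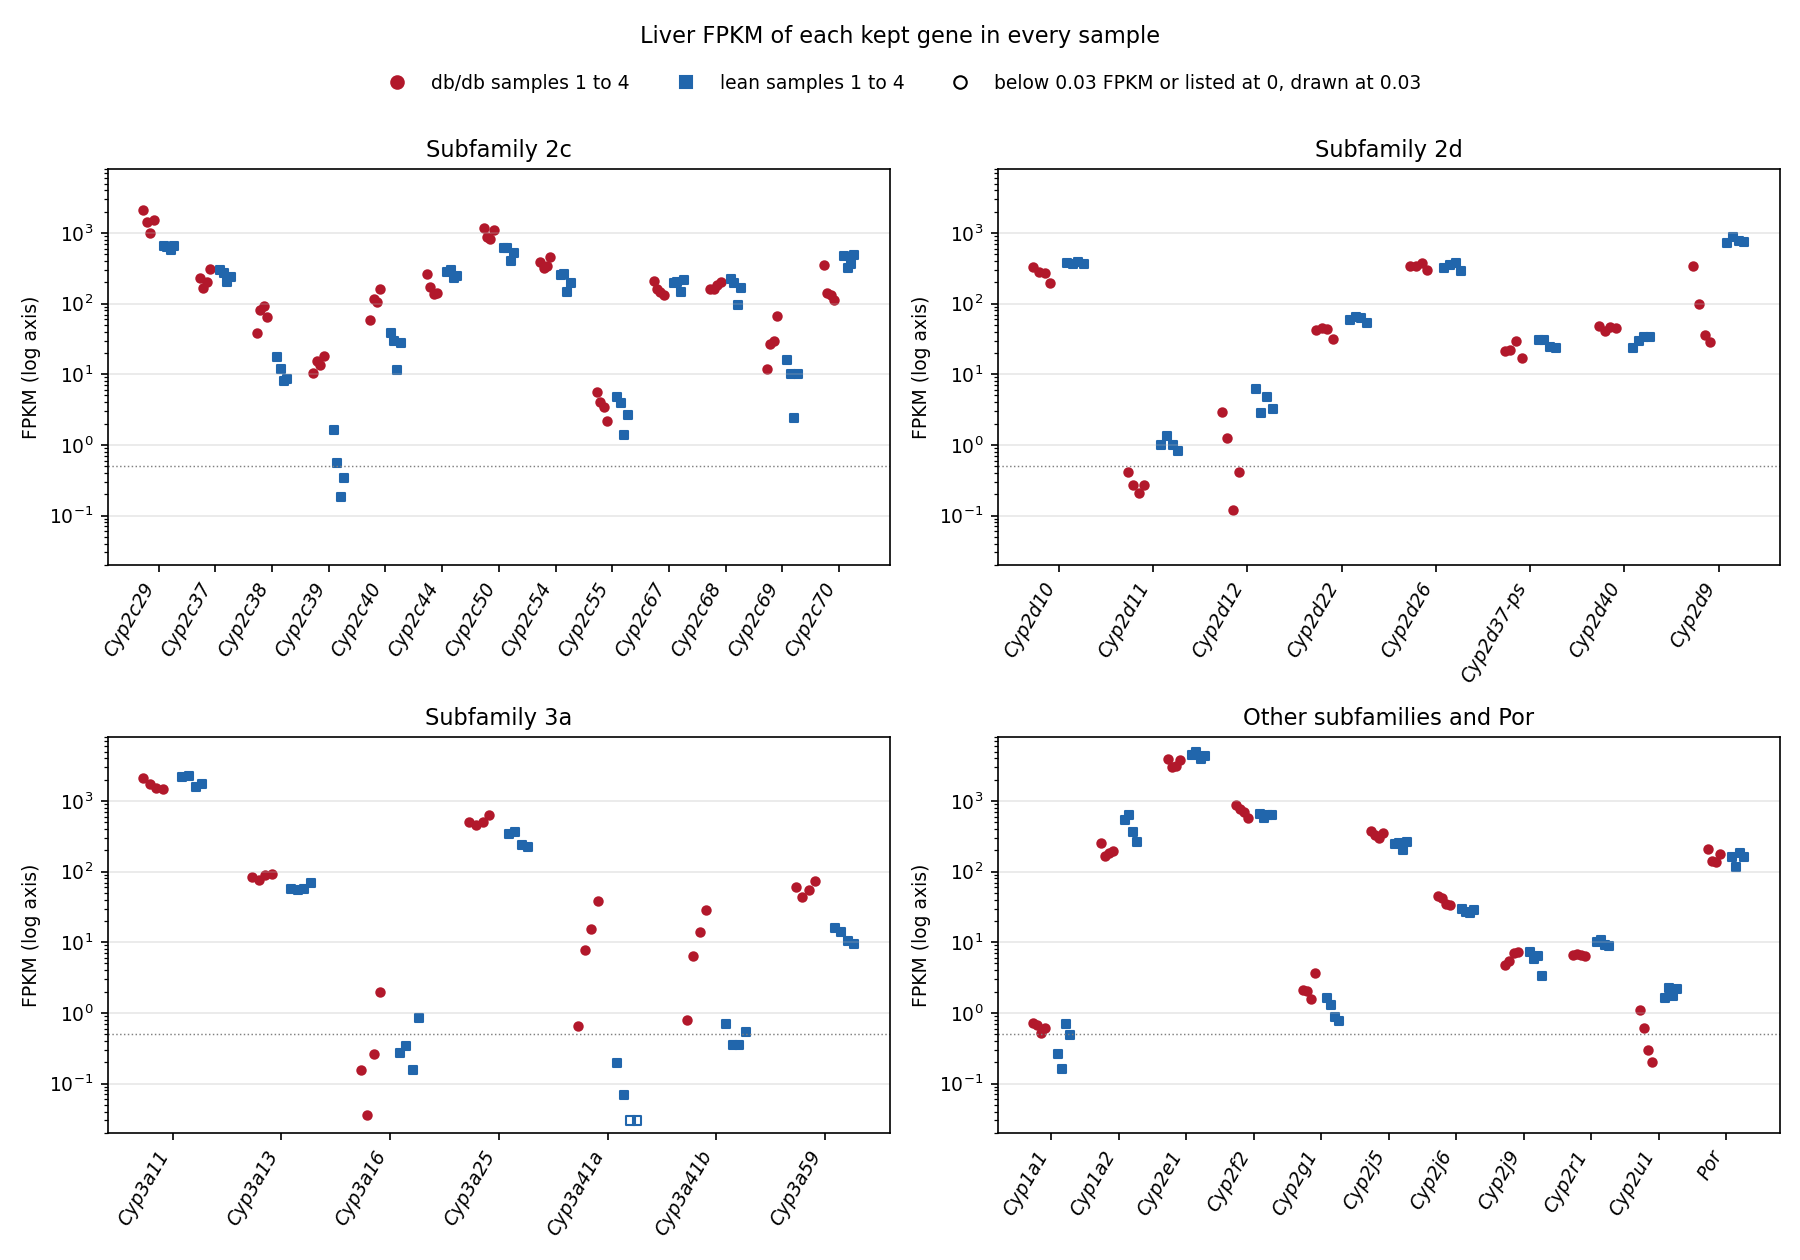
FPKM (log axis) of each kept gene in each sample, with db/db samples as red circles left of lean samples as blue squares; the dotted line marks 0.5 FPKM and open symbols are values below 0.03. Cyp2c38, Cyp2c39, Cyp2c40, Cyp3a59 and Cyp3a41a stand higher in all 4 db/db samples, and Cyp2d9 and Cyp1a2 stand lower, with no overlap.

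Por, the electron donor common to all microsomal P450 enzymes, had 205, 143, 137 and 175 FPKM in db/db samples 1 to 4, against 159, 117, 184 and 163 FPKM in lean samples 1 to 4. The groups overlapped, with db/db 1 above every lean sample and lean 2 below every db/db sample. Its log2 fold change was 0.08 (95% interval -0.29 to 0.45, limma), and its sign turned without db/db 1 (-0.03) and without lean 2 (-0.05). The gene lies at chr5:135670033-135735326 on the plus strand of mm10.

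Partners that help P450 enzymes at the membrane were called in both directions. Of 5 tested genes of this kind outside the kept genes, 3 rose and 1 fell in db/db livers. Over all genes tested, 15.1% were called higher and 10.6% lower. Cyb5a, also on this list, had no row under that symbol and was not tested. Pgrmc2, a heme-binding membrane protein that can associate with P450 enzymes, had 21.6, 34.4, 38.6 and 30.2 FPKM in db/db samples, against 13.5, 14.0, 12.6 and 11.5 FPKM in lean samples. Every db/db sample stood above every lean sample, with a log2 fold change of 1.18 ± 0.16 (SE) and an adjusted p of 5.5e-04 (limma). Its relative Pgrmc1 averaged 909 ± 93.1 FPKM in db/db and 659 ± 61.5 FPKM in lean livers (SD, n = 4 each; limma adjusted p = 0.0152). Cyb5r3, the reductase of cytochrome b5, averaged 199 ± 25.3 FPKM in db/db and 142 ± 9.84 FPKM in lean livers (limma adjusted p = 0.0116). Cyb5b, a cytochrome b5 of the outer mitochondrial membrane, averaged 65.2 ± 22.1 FPKM in db/db and 44.8 ± 12.4 FPKM in lean livers and was not called.

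Cyb5r1, a related reductase, averaged 1.88 ± 0.844 FPKM in db/db and 3.70 ± 0.900 FPKM in lean livers (limma adjusted p = 0.0371). This call was lost without db/db 1 (adjusted p = 0.0629), db/db 3 (0.0601), lean 1 (0.0548), lean 2 (0.0953) or lean 3 (0.0699), all with limma, where the adjusted p ranged from 0.0171 to 0.0953 over 20 alternatives.

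Cyp1a2 fell in db/db livers to less than the level of any lean sample. This enzyme, inducible through the aryl hydrocarbon receptor, oxidises caffeine and aromatic amines and is made around the central vein. It had 252, 167, 183 and 195 FPKM in db/db samples 1 to 4, against 536, 622, 365 and 264 FPKM in lean samples 1 to 4. The lowest lean sample stood just above the highest db/db sample. Its log2 fold change was -1.10 ± 0.25 (SE) with an adjusted p of 0.00839 (limma), 2.24-fold lower by mean FPKM, and the adjusted p ranged from 0.00164 to 0.0268 over 20 alternatives. Cyp1a2 lies at chr9:57676937-57683655 on the minus strand and shares 4.97% of its windows with Cyp1a1.

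Cyp1a1, the other classical target of the same receptor, was near the limit of the rule, with 22 to 36 estimated fragments in db/db libraries and 6 to 28 in lean libraries. It averaged 0.634 ± 0.0840 FPKM in db/db and 0.401 ± 0.240 FPKM in lean livers and was not called. Of 3 tested targets of the receptor outside the kept genes, 2 rose, where 15.1% of all genes tested were called higher. Nqo1, a quinone reductase also driven by NRF2, had 11.2, 17.7, 18.4 and 21.3 FPKM in db/db samples, against 3.06, 3.58, 2.19 and 2.46 FPKM in lean samples (limma adjusted p = 2.5e-05). The groups lay far apart. Tiparp, a poly-ADP-ribose polymerase that dampens the receptor, averaged 2.65 ± 0.690 FPKM in db/db and 1.47 ± 0.441 FPKM in lean livers (limma adjusted p = 0.0402). Its call was lost without db/db 2 (adjusted p = 0.0570), db/db 3 (0.0991), db/db 4 (0.105), lean 1 (0.0897), lean 2 (0.0624) or lean 3 (0.1003), all with limma, within a range of 0.0213 to 0.105 over 20 alternatives. The glucuronosyltransferase gene Ugt1a6a averaged 49.9 ± 1.97 FPKM in db/db and 40.3 ± 7.22 FPKM in lean livers and was not called. The targets Ahrr and Aldh3a1 were at or near 0 in every sample. Ahr itself averaged 4.55 ± 0.687 FPKM in db/db and 5.32 ± 0.827 FPKM in lean livers and was not called.

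Cyp2e1, which oxidises ethanol, acetone and paracetamol, was the most abundant of these genes in every sample. It had 3976, 3047, 3141 and 3771 FPKM in db/db samples, against 4468, 4965, 3886 and 4392 FPKM in lean samples. The highest db/db sample reached just above the lowest lean sample. The log2 fold change of -0.35 (95% interval -0.65 to -0.05) had a limma adjusted p of 0.0847 and was not called. Without db/db 1 it was -0.42 with a limma adjusted p of 0.0347, and with library weights the limma adjusted p was 0.0268, both past the threshold, within a range of 0.0268 to 0.219 over 20 alternatives. Its share of the summed FPKM of the 52 P450 genes was 27.2 to 30.9% in db/db livers and 34.0 to 36.7% in lean livers.

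Cyp2f2, which is made in hepatocytes around the portal vein and oxidises naphthalene, had 882, 763, 697 and 581 FPKM in db/db samples, against 650, 582, 624 and 640 FPKM in lean samples. The groups overlapped, through db/db 4, and the log2 fold change of 0.21 (95% interval -0.08 to 0.50, limma) was not called.

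The Cyp2c subfamily rose in total and at the same time changed its make-up. Summed over 15 genes it reached 4045 ± 793 FPKM in db/db and 2723 ± 388 FPKM in lean livers (SD, n = 4 each). Of 13 kept genes, 7 were higher in db/db (Cyp2c29, Cyp2c38, Cyp2c39, Cyp2c40, Cyp2c50, Cyp2c54 and Cyp2c69), 2 were lower (Cyp2c44 and Cyp2c70) and 4 were not called. The subfamily's median log2 fold change was 0.83. Except for Cyp2c44, these genes lie between 39007019 and 40187333 on chromosome 19.

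Cyp2c39, which hydroxylates retinoic acid, had the smallest adjusted p and the largest rise of the subfamily. It had 10.5, 15.6, 13.4 and 18.0 FPKM in db/db samples, against 1.61, 0.555, 0.185 and 0.339 FPKM in lean samples. Each db/db sample had over 10 FPKM and each lean sample under 2. The log2 fold change was 3.25 ± 0.24 (SE; limma adjusted p = 9.7e-06). By mean FPKM it was 21.4-fold higher, and 40.0-fold without lean 1, which had the highest lean value. These levels rest on 355 to 538 estimated fragments in db/db libraries and 5 to 50 in lean libraries. Its closest relative Cyp2c38, an epoxygenase, had 38.7, 80.2, 91.9 and 63.9 FPKM in db/db samples, against 17.4, 11.8, 8.09 and 8.57 FPKM in lean samples. It was higher in all 4 db/db samples, with db/db 1 the lowest of them, and the log2 fold change was 2.47 ± 0.28 (SE; limma adjusted p = 1.6e-04). Summed, Cyp2c38 and Cyp2c39 had a log2 fold change of 2.69 (limma adjusted p = 7.6e-05).

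Cyp2c29, the most abundant Cyp2c gene, makes epoxides of arachidonic acid and is known from hepatocytes around the central vein. It had 2132, 1406, 1005 and 1503 FPKM in db/db samples, against 654, 639, 564 and 662 FPKM in lean samples. The lean samples lay close together and all db/db samples stood above them, db/db 1 highest, and the log2 fold change was 1.21 ± 0.19 (SE; limma adjusted p = 0.00134). It shared only 2.08% of its windows with other genes.

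Cyp2c50, Cyp2c54 and Cyp2c37 form a group of similar genes, of which the first and second rose. Cyp2c50 averaged 998 ± 176 FPKM in db/db and 541 ± 102 FPKM in lean livers (log2 fold change 0.89, limma adjusted p = 0.00389). Cyp2c54 averaged 378 ± 59.4 FPKM in db/db and 215 ± 54.5 FPKM in lean livers (log2 fold change 0.83, limma adjusted p = 0.00896). Cyp2c37 averaged 230 ± 61.1 FPKM in db/db and 253 ± 41.8 FPKM in lean livers, with a log2 fold change of -0.16 that was not called. The sum of the 3 genes had a log2 fold change of 0.68 (limma adjusted p = 0.0160), the opposite sign to that of Cyp2c37 alone.

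Cyp2c40 and Cyp2c69, known as genes with higher levels in female than in male mouse liver, were higher in db/db, while their relatives Cyp2c67 and Cyp2c68 were not called. Cyp2c40 had 58.5, 115, 107 and 160.2 FPKM in db/db samples, against 38.2, 29.2, 11.4 and 27.8 FPKM in lean samples. No samples overlapped, and db/db 1 stood nearest to the lean group (log2 fold change 2.04 ± 0.36 SE, limma adjusted p = 0.00251). Cyp2c69 had 12.0, 27.2, 29.8 and 66.4 FPKM in db/db samples, against 15.8, 10.2, 2.39 and 10.05 FPKM in lean samples. Here db/db 1 lay within the lean range, and the log2 fold change was 1.68 ± 0.53 (SE; limma adjusted p = 0.0405). This call was lost without db/db 2, db/db 3 or db/db 4 (limma adjusted p = 0.0738, 0.0760 and 0.103), and likewise without lean 2, lean 3 or lean 4 (0.0642, 0.0875 and 0.0578), within a range of 0.0139 to 0.103 over 20 alternatives. Cyp2c67 averaged 160.2 ± 33.5 FPKM in db/db and 191 ± 30.7 FPKM in lean livers, and Cyp2c68 averaged 176 ± 19.2 FPKM in db/db and 169 ± 53.7 FPKM in lean livers. The sum of the 4 genes was 480.1 ± 52.6 FPKM in db/db and 396 ± 95.5 FPKM in lean livers, with a log2 fold change of 0.31 that was not called (limma adjusted p = 0.241). The calls of Cyp2c40 and Cyp2c69 did not carry over to this sum.

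Cyp2c70, which hydroxylates chenodeoxycholic acid to muricholic acids in mice, had the largest fall of the subfamily. It had 346, 142, 134 and 112 FPKM in db/db samples, against 467, 316, 359 and 489 FPKM in lean samples. Db/db 1 lay within the lean range while the other 3 db/db samples were far below it. Its log2 fold change was -1.28 ± 0.31 (SE; limma adjusted p = 0.0122). With db/db 1 left out it was -1.64 (limma adjusted p = 9.3e-05, within a range of 9.3e-05 to 0.0360 over 20 alternatives). The gene shared no window with another. Cyp2c44, an epoxygenase that lies apart at chr19:44005022-44029247, averaged 177 ± 59.4 FPKM in db/db and 264 ± 32.8 FPKM in lean livers (log2 fold change -0.62, limma adjusted p = 0.0416). Its call was lost without db/db 2, db/db 3 or db/db 4 (limma adjusted p = 0.0811, 0.103 and 0.110), and likewise without lean 1, lean 2 or lean 4 (0.0959, 0.101 and 0.0625), within a range of 0.00147 to 0.110 over 20 alternatives. Cyp2c55 averaged 3.85 ± 1.45 FPKM in db/db and 3.19 ± 1.48 FPKM in lean livers and was not called.

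**Figure D2:**
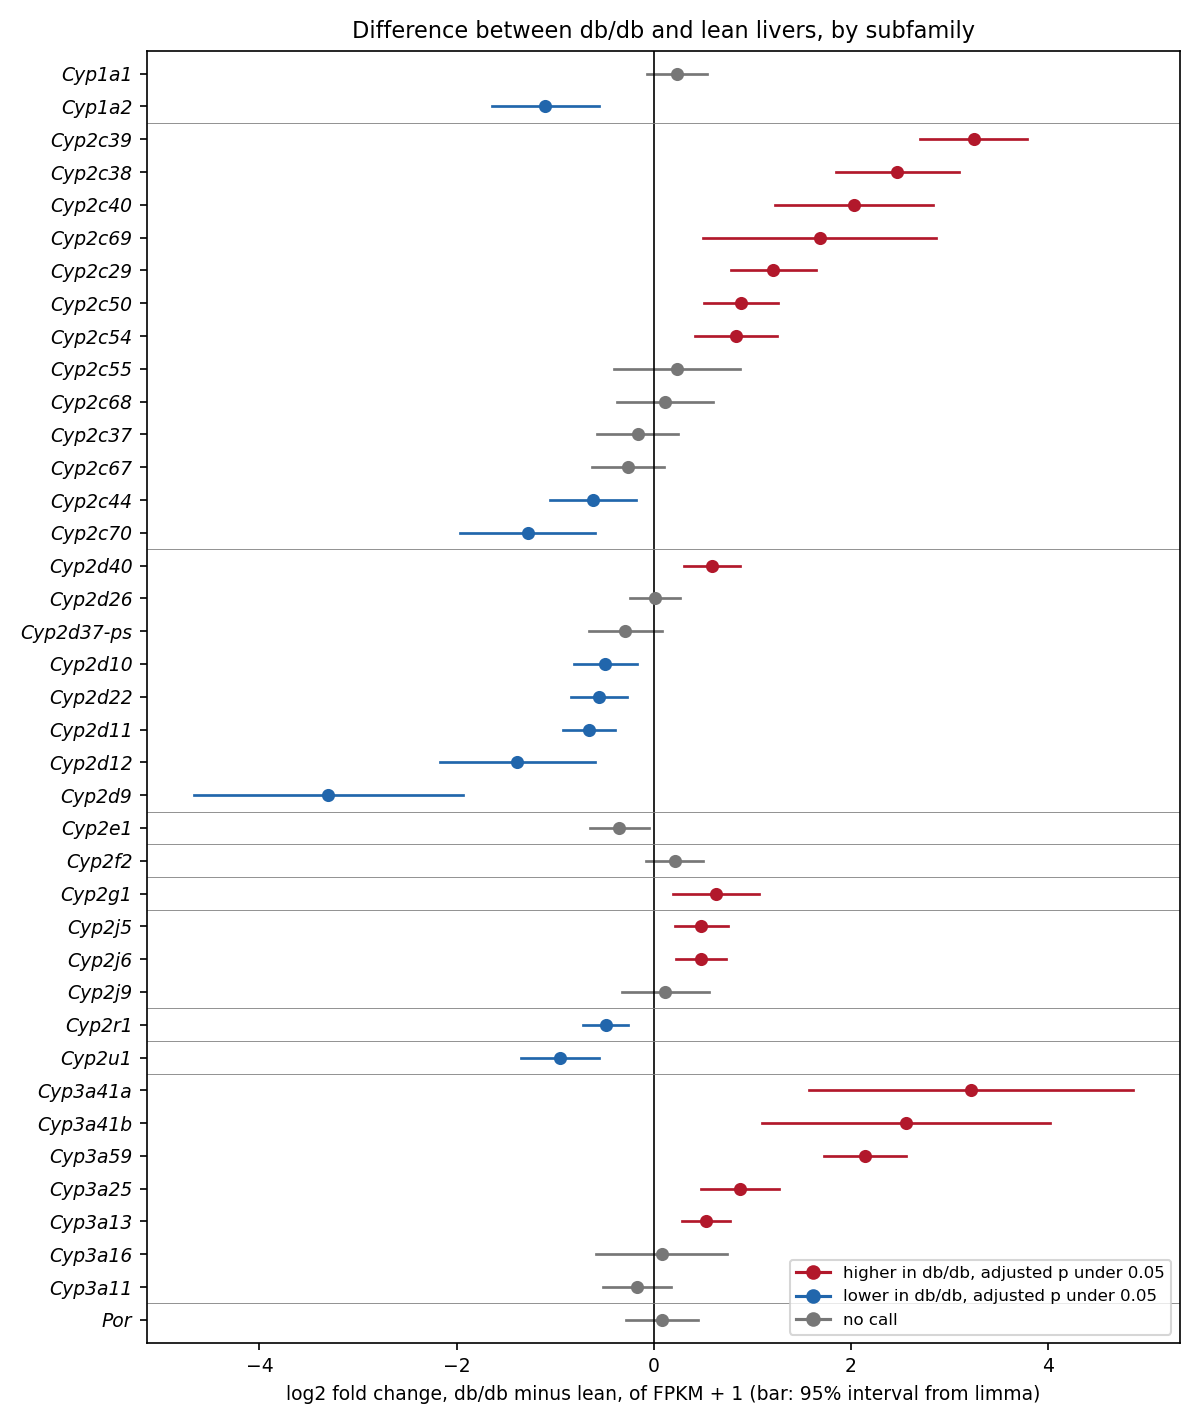
Log2 fold change of FPKM + 1, db/db minus lean, of each kept gene by subfamily, with bars for the 95% interval from limma. Red genes were called higher in db/db (16), blue genes lower (10), and grey genes were not called (13); Cyp2c39 at 3.25 and Cyp2d9 at -3.30 mark the ends.

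The Cyp2d subfamily fell in total, to 846 ± 210 FPKM in db/db, against 1605 ± 97.6 FPKM in lean livers (SD, n = 4 each). Of 8 kept genes, 5 were lower, 1 was higher and 2 were not called, with a median log2 fold change of -0.52. Without Cyp2d11, which passed the filter through the lean group only, 4 of 7 were lower. All 8 lie between 82370528 and 82794245 on chromosome 15.

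Most of this difference was Cyp2d9, the testosterone 16-alpha-hydroxylase known for higher levels in male than in female mouse liver. It had 342, 99.5, 36.1 and 28.5 FPKM in db/db samples, against 719, 862, 773 and 738 FPKM in lean samples. All db/db samples were below all lean samples, and they spread widely, with db/db 1 far above the other 3 (log2 fold change -3.30 ± 0.62 SE, limma adjusted p = 0.00328). By mean FPKM it was 6.11-fold lower, and 14.1-fold lower without db/db 1. Without that sample the log2 fold change was -4.01 (limma adjusted p = 3.2e-05, within a range of 3.2e-05 to 0.0178 over 20 alternatives). Its estimated fragments were whole, within 0.05 of a fragment, in 1 of 8 samples. Summed with Cyp2d12, which holds 10.7% of the windows of Cyp2d9, the log2 fold change was -3.29 (limma adjusted p = 0.00329). Cyp2d12 averaged only 1.18 FPKM in db/db and 4.22 FPKM in lean livers, so this sum could hardly differ from Cyp2d9 alone. Cyp2d10 and Cyp2d11, whose coding sequences are 92.5% and 93.3% identical to that of Cyp2d9, were not in this sum. How fragments were divided among these genes was not tested.

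Cyp2d11 had the smallest adjusted p of the subfamily but lay low, at 0.410, 0.275, 0.206 and 0.271 FPKM in db/db samples, against 1.01, 1.33, 0.983 and 0.830 FPKM in lean samples. Behind these lie 5 to 12 estimated fragments in db/db libraries and 19 to 29 in lean libraries, and it passed the filter through the lean group only. Its log2 fold change of -0.66 ± 0.12 (SE; limma adjusted p = 0.00271) is compressed by the added 1 FPKM, and on estimated fragments voom gave -1.74 (adjusted p = 0.00628). Cyp2d12 averaged 1.18 ± 1.27 FPKM in db/db and 4.22 ± 1.51 FPKM in lean livers (log2 fold change -1.38, limma adjusted p = 0.0165). Db/db 1 at 2.96 FPKM stood above lean 2 at 2.80 FPKM, so the groups overlapped. Cyp2d12 had 3 to 88 estimated fragments in db/db libraries and 62 to 166 in lean libraries. By mean FPKM it was 3.56-fold lower, and 7.12-fold lower without db/db 1. Cyp2d22 averaged 40.8 ± 6.24 FPKM in db/db and 59.9 ± 5.24 FPKM in lean livers (log2 fold change -0.55, limma adjusted p = 0.0105).

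Cyp2d10 averaged 270.2 ± 56.1 FPKM in db/db and 373.5 ± 14.4 FPKM in lean livers, with no overlap (log2 fold change -0.49, limma adjusted p = 0.0321). Its call was lost when any sample except db/db 1 was left out, with limma adjusted p between 0.0533 and 0.0738 in those 7 fits and from 0.00812 to 0.0738 over 20 alternatives. Cyp2d26, second among Cyp2d genes by mean over all 8 samples, averaged 339 ± 29.98 FPKM in db/db and 336 ± 36.2 FPKM in lean livers. The 95% interval of its log2 fold change ran from -0.24 to 0.27. In db/db livers its mean was the highest of the subfamily, and in lean livers it was below those of Cyp2d9 and Cyp2d10. The transcribed pseudogene Cyp2d37-ps averaged 22.5 ± 5.41 FPKM in db/db and 27.3 ± 4.06 FPKM in lean livers and was not called.

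Cyp2d40 was the member that went the other way. It had 48.4, 40.5, 47.3 and 44.9 FPKM in db/db samples, against 23.3, 29.7, 33.9 and 33.1 FPKM in lean samples. The groups did not overlap, and the log2 fold change was 0.59 ± 0.13 (SE; limma adjusted p = 0.00758).

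The Cyp3a subfamily changed little in total, 2429 ± 245 FPKM in db/db and 2302 ± 380 FPKM in lean livers (SD, n = 4 each), although most of its genes were called. Of 7 kept genes, 5 were higher in db/db (Cyp3a13, Cyp3a25, Cyp3a41a, Cyp3a41b and Cyp3a59), 0 were lower and 2 were not called, with a median log2 fold change of 0.88. Without Cyp3a41a, which passed the filter through the db/db group only, 4 of 6 were higher, with a median of 0.70. Cyp3a11, the main drug-inducible mouse Cyp3a enzyme and a target of the pregnane X receptor, had 2129, 1742, 1548 and 1488 FPKM in db/db samples, against 2178, 2224, 1598 and 1750 FPKM in lean samples. The groups overlapped, and the log2 fold change of -0.17 had a 95% interval from -0.51 to 0.18 (limma).

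Cyp3a59 had the smallest adjusted p of the subfamily. It had 60.7, 43.7, 55.1 and 74.7 FPKM in db/db samples, against 15.9, 13.9, 10.5 and 9.52 FPKM in lean samples. All db/db samples, db/db 1 included, were well above the lean samples, with a log2 fold change of 2.15 ± 0.19 (SE; limma adjusted p = 2.9e-05). Its relative Cyp3a25, which shares 25.0% of its windows with it, averaged 528 ± 78.8 FPKM in db/db and 292 ± 72.1 FPKM in lean livers (log2 fold change 0.88, limma adjusted p = 0.00500). The sum of Cyp3a25 and Cyp3a59 had a log2 fold change of 0.97 (limma adjusted p = 0.00306). Cyp3a13, which shared no window with another gene, averaged 85.8 ± 6.89 FPKM in db/db and 59.3 ± 7.17 FPKM in lean livers (log2 fold change 0.53, limma adjusted p = 0.00610).

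Cyp3a41a and Cyp3a41b, a near-identical pair known for expression in female rather than male adult mouse liver, were close to 0 in lean livers and reached up to 38.9 FPKM in db/db livers. Cyp3a41a had 0.647, 7.87, 15.6 and 38.9 FPKM in db/db samples, against 0.198, 0.0695, 0 and 0 FPKM in lean samples. Cyp3a41b had 0.8004, 6.40, 13.9 and 28.3 FPKM in db/db samples, against 0.706, 0.347, 0.356 and 0.528 FPKM in lean samples. Db/db 1 stayed close to the lean samples in both genes while the other 3 db/db samples were well above them. The lean levels of Cyp3a41a rest on 0 to 7 estimated fragments per sample, so no fold is given for it alone. The log2 fold change was 3.22 ± 0.74 (SE; limma adjusted p = 0.00979) for Cyp3a41a and 2.56 ± 0.66 (SE; limma adjusted p = 0.0168) for Cyp3a41b. Both calls were lost with voom on estimated fragments, with adjusted p = 0.259 for Cyp3a41a and 0.154 for Cyp3a41b, and that of Cyp3a41b also with robust limma (adjusted p = 0.0522). Without db/db 1 the log2 fold change was 4.08 for Cyp3a41a (limma adjusted p = 7.6e-05). It was 2.55 when db/db 4 was left out (limma adjusted p = 0.0181). For Cyp3a41b it was 3.32 without db/db 1 (limma adjusted p = 1.7e-04). Over 19 alternatives the adjusted p ranged from 7.6e-05 to 0.259 for Cyp3a41a and from 1.7e-04 to 0.154 for Cyp3a41b.

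Summed, the pair had 1.45, 14.3, 29.5 and 67.2 FPKM in db/db samples, against 0.904, 0.416, 0.356 and 0.528 FPKM in lean samples. No samples overlapped, and the log2 fold change of the sum was 3.44 ± 0.78 (SE; limma adjusted p = 0.00920), 51.0-fold higher by mean FPKM. Without db/db 4, the highest sample, the fold was 27.4. How alike the values of the pair are depends on how the authors' counting divided their shared fragments. The 250 bases before each start are shown, from RefSeq on GRCm38.p6, both on the minus strand. Capitals mark the single match to AGTTCA, a short element bound by nuclear receptors, read here from the opposite strand. The windows lie at chr5:145720137-145720386 for Cyp3a41a and chr5:145584731-145584980 for Cyp3a41b.
Cyp3a41a: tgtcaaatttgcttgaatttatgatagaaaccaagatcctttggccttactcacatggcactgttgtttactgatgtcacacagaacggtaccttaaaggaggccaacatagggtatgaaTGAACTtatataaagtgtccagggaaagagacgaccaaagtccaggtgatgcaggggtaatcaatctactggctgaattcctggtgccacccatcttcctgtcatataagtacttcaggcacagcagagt
Cyp3a41b: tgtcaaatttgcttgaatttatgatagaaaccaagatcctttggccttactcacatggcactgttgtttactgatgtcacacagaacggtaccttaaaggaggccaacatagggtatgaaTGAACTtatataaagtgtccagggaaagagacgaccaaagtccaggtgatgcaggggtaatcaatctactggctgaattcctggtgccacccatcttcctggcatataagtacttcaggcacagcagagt
The windows differ at 1 of 250 bases. With the first listed RefSeq window of each gene, read on either strand, AGTTCA was found in 6 of the 32 kept genes with a window (18.8%, with 14% of the 27025 genes that have one): this pair, Cyp2c40, Cyp2c50, Cyp2c69 and Cyp3a11. Cyp2c39 holds it in its second window and is not in that count. GCGTG, the core of the aryl hydrocarbon receptor element, was found in 5 of 32 (15.6%, with 32.5% of all windows), and TTCNNNGAA, the STAT5 element, in 0 of 32 (with 8.47% of all windows). A match is a description of these letters in these windows only.

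The third female-biased Cyp3a gene kept, Cyp3a16, averaged 0.608 ± 0.918 FPKM in db/db and 0.399 ± 0.300 FPKM in lean livers, and only db/db 4 stood out, at 1.98 FPKM. It was not called, and its sign was opposite with voom. Cyp3a44, outside the rule, had 0.249 to 0.770 FPKM in db/db livers and 0.0694 to 0.267 FPKM in lean livers.

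Of the 3 kept Cyp2j genes, 2 rose and Cyp2j9 was not called. The sum over the subfamily was 384 ± 37.1 FPKM in db/db and 276 ± 29.6 FPKM in lean livers. Cyp2j5, the most abundant, had 378, 325, 298 and 354 FPKM in db/db samples, against 246, 257, 199.6 and 266 FPKM in lean samples. Cyp2j6 had 44.9, 42.7, 34.9 and 33.9 FPKM in db/db samples, against 29.3, 26.6, 25.9 and 28.2 FPKM in lean samples. Neither gene's groups overlapped, and both log2 fold changes were 0.48 (limma adjusted p = 0.0152 for Cyp2j5 and 0.0115 for Cyp2j6). Cyp2j9 averaged 6.15 ± 1.20 FPKM in db/db and 5.68 ± 1.66 FPKM in lean livers.

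The single-gene subfamilies 2g, 2r and 2u lay low. Cyp2r1, a vitamin D 25-hydroxylase, had 6.52, 6.87, 6.58 and 6.36 FPKM in db/db samples, against 9.95, 10.8, 9.17 and 8.72 FPKM in lean samples. Its groups were tight and apart, with a log2 fold change of -0.49 ± 0.10 (SE; limma adjusted p = 0.00682). This call was lost with voom (adjusted p = 0.0668, the highest over 20 alternatives, the lowest being 0.00434). Cyp2u1, a hydroxylase of long-chain fatty acids, had 1.10, 0.620, 0.298 and 0.205 FPKM in db/db samples, against 1.63, 2.27, 1.75 and 2.16 FPKM in lean samples. No samples overlapped, on 8 to 49 estimated fragments in db/db libraries and 62 to 75 in lean libraries, and the log2 fold change was -0.95 ± 0.18 (SE; limma adjusted p = 0.00337). Cyp2g1, known from olfactory mucosa, had 2.14, 2.05, 1.56 and 3.67 FPKM in db/db samples, against 1.64, 1.28, 0.867 and 0.775 FPKM in lean samples. The groups overlapped, and its log2 fold change of 0.63 (limma adjusted p = 0.0392) was not called in 9 of 20 alternatives, among them those without db/db 1, db/db 2 or db/db 4 (limma adjusted p = 0.0608, 0.0631 and 0.0905) and without lean 2, lean 3 or lean 4 (0.0605, 0.0951 and 0.0932), within a range of 0.0261 to 0.0951.

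**Figure D3:**
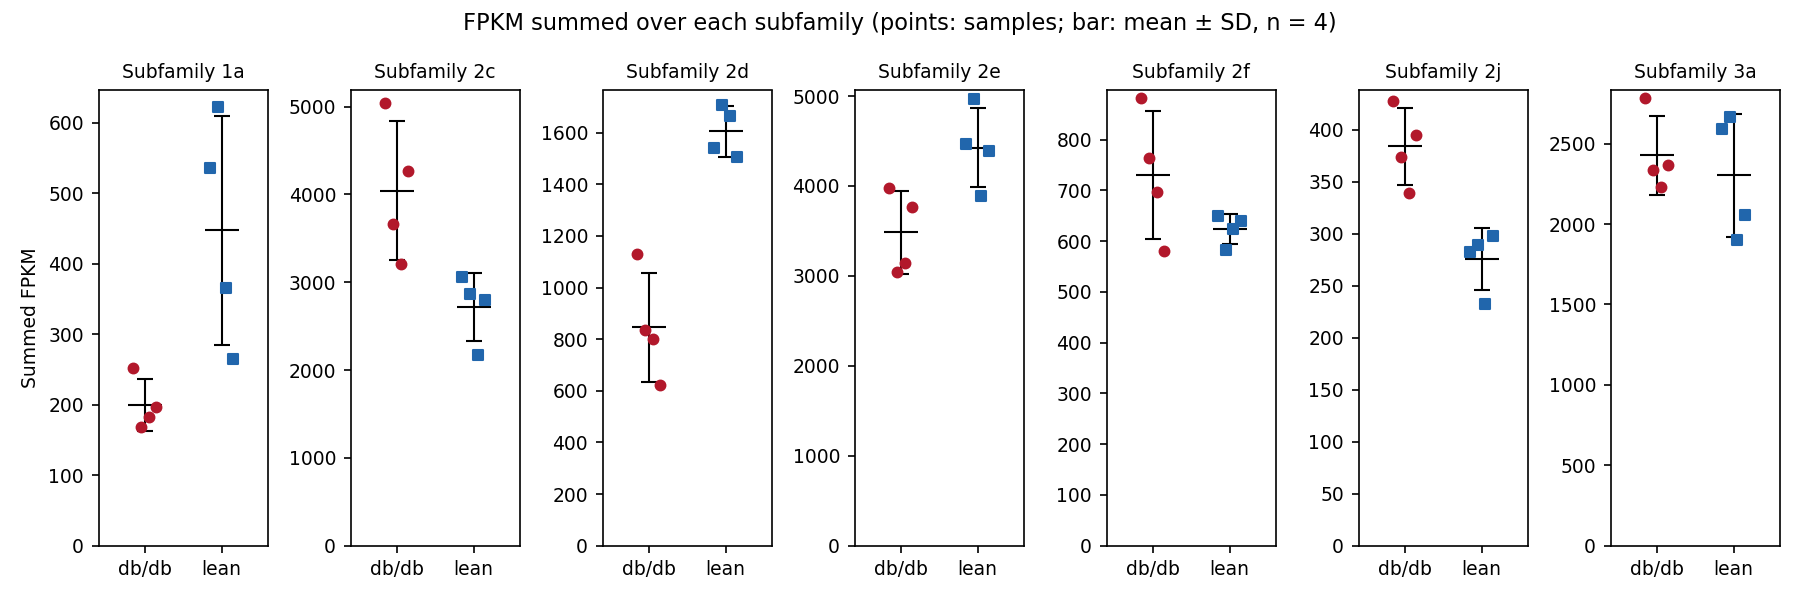
FPKM summed over each of 7 subfamilies, all matching genes included, with db/db samples (red circles) left of lean samples (blue squares) and bars for the mean ± SD (n = 4 each); each panel has its own scale from 0. Sums of 2c and 2j stood higher in every db/db sample and those of 1a and 2d lower, while 2e, 2f and 3a overlapped.

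Groups of genes that cut across the subfamilies can be read from the same values. Of 5 tested members known for higher levels in female mouse liver (Cyp2c40, Cyp2c69, Cyp3a16, Cyp3a41a and Cyp3a41b), 4 were higher and 0 lower in db/db, with a median log2 fold change of 2.04. Cyp3a41a passed the filter on low values through the db/db group only, and without it 3 of 4 were higher and 0 lower, with a median of 1.86. Over all genes tested, 15.1% were called higher and 10.6% lower. The count of 4 was 2 with voom and with robust limma. With a filter of 1 FPKM in 4 of 8 samples it was also 2. There Cyp3a16, Cyp3a41a and Cyp3a41b were not tested, and Cyp2c40 and Cyp2c69 were both called. The 4 genes called higher are not separate readings, since Cyp3a41a shared 93.7% of its windows with Cyp3a41b. The calls of Cyp2c40 and Cyp2c69 did not carry over to their sum with Cyp2c67 and Cyp2c68 (log2 fold change 0.31, limma adjusted p = 0.241). The 1 member listed for higher levels in male liver, Cyp2d9, was lower. All 8 samples expressed the 4 Y-linked genes checked for the male label, with sums of 50.8 to 53.9 FPKM in db/db and 41.5 to 53.7 FPKM in lean livers, and 1 of the 4, Uty, was called higher in db/db.

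Members known from hepatocytes around the central vein did not move as 1 block: of 7, 3 were higher (Cyp2c29, Cyp2c50 and Cyp2c54), 1 was lower (Cyp1a2) and 3 were not called (Cyp2c37, Cyp2e1 and Cyp3a11), with a median log2 fold change of -0.16. Without db/db 1, Cyp2e1 was also called lower (limma adjusted p = 0.0347). Of 10 genes of the 2c and 2j subfamilies listed as arachidonic acid epoxygenases, 7 were higher and 1, Cyp2c44, was lower. Their median log2 fold change was 0.66, and the epoxygenase label was not checked for each gene. Over all genes tested, 15.1% were called higher and 10.6% lower, with a median log2 fold change of 0.04. The genes of both lists are also counted under their subfamilies above.

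The 4 db/db samples differed in how far they stood from the lean group. Across the 39 kept genes, on the log2(FPKM + 1) scale, db/db 1 correlated with the lean samples at r = 0.958 to 0.976 and with the other db/db samples at r = 0.914 to 0.976. Db/db 2 to 4 correlated with the lean samples at r = 0.824 to 0.937 and among themselves at r = 0.972 to 0.991. These are correlations across genes within pairs of libraries, and genes are not independent replicates. Of the 26 called genes, db/db 1 was the db/db sample nearest to the lean mean for 14, among them Cyp2d9, Cyp2c38, Cyp2c39, Cyp2c40, Cyp2c70, Cyp3a41a and Cyp3a41b, and farthest from it for 5, among them Cyp2c29 and Cyp2c50. Db/db 4 was the farthest for 16 and the nearest for 1. Without db/db 1, 15 kept genes were called higher and 11 lower, where 23.2% of all genes tested were called. Over all tested genes, the second principal component (10.8% of the variance) also set db/db 1 apart, and db/db 1 had the most estimated fragments, 16171661. The part of these values in the results was not tested.

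**Figure D4:**
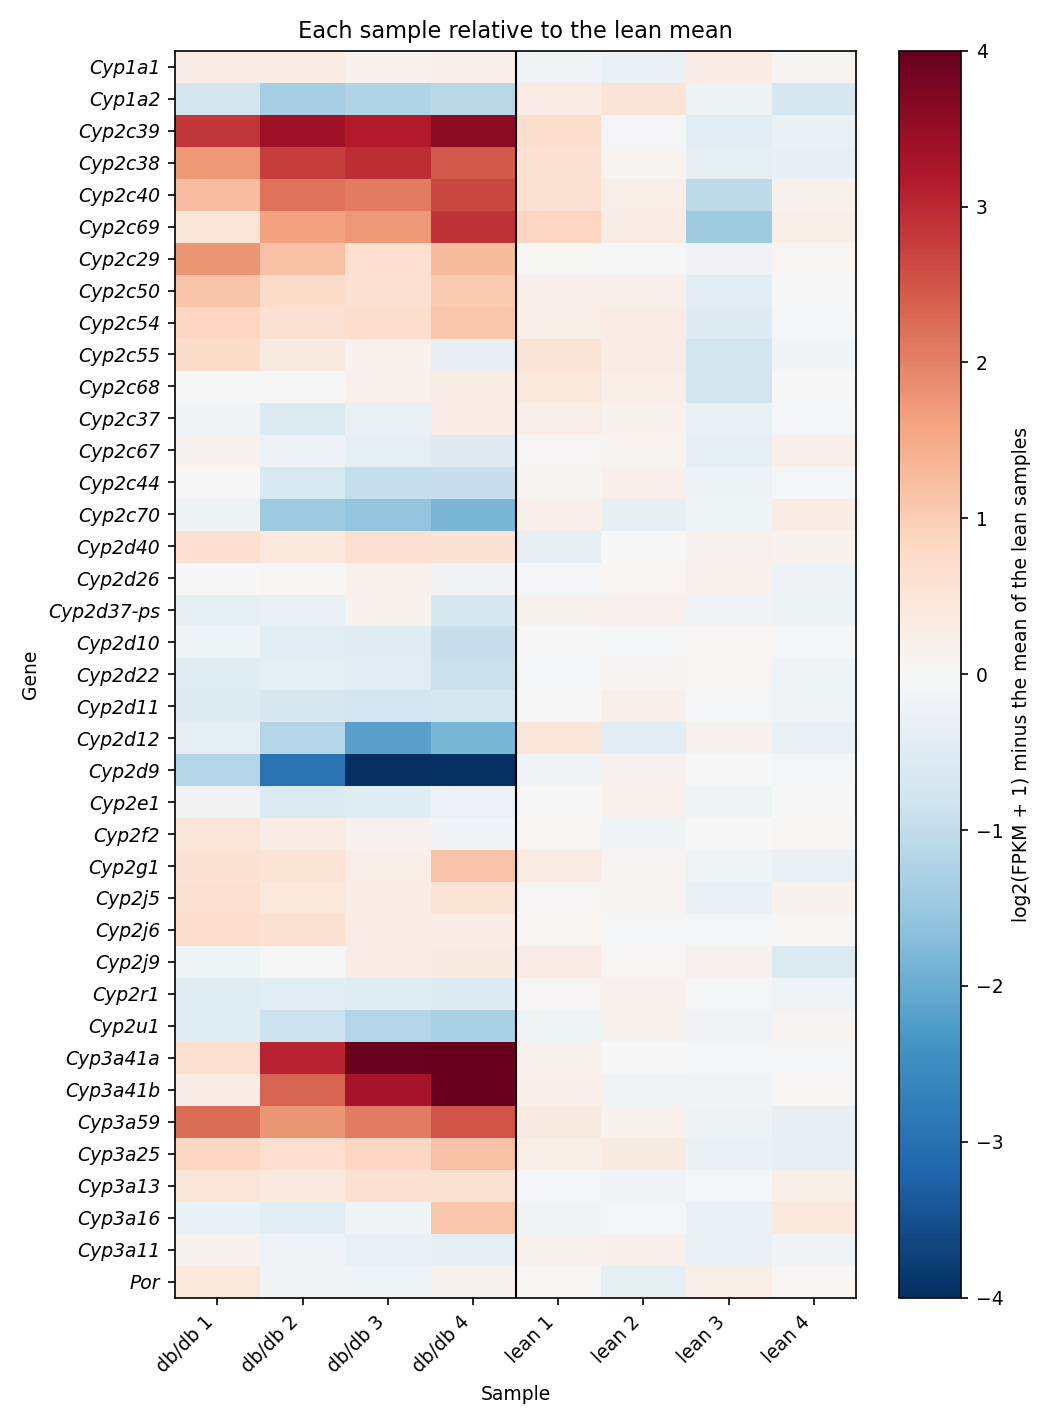
Log2(FPKM + 1) of each kept gene (rows) in each sample (columns, db/db left of lean) minus the mean of the lean samples, red above and blue below, with colours ending at 4 and -4. Db/db 1 is paler than db/db 2 to 4 for Cyp3a41a, Cyp3a41b, Cyp2c70 and Cyp2c69, but about as deeply coloured as they are for Cyp3a59.

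Of 12 tested genes of known regulators of these P450 genes, 1 rose and 1 fell in db/db, where 25.6% of all genes tested were called in either direction. The count of 2 became 4 without db/db 1 and with median-of-ratios scaling, voom or library weights. Nfe2l2, which encodes NRF2, had 41.5, 73.6, 68.4 and 67.2 FPKM in db/db samples, against 32.4, 36.0, 22.6 and 26.5 FPKM in lean samples. All db/db samples were higher, db/db 1 the least so (log2 fold change 1.06 ± 0.20 SE, limma adjusted p = 0.00310). Cebpa, a transcription factor of hepatocyte differentiation, had 82.1, 82.8, 93.8 and 91.3 FPKM in db/db samples, against 129.9, 126, 109 and 110.1 FPKM in lean samples. All db/db samples were lower (log2 fold change -0.43 ± 0.10 SE, limma adjusted p = 0.0101). The receptor genes of drug sensing were not called: Nr1i2 averaged 36.4 ± 2.15 FPKM in db/db and 33.0 ± 5.33 FPKM in lean livers, and Nr1i3 averaged 118 ± 26.3 FPKM in db/db and 132 ± 35.4 FPKM in lean livers. Their partner Rxra averaged 37.2 ± 7.89 FPKM in db/db and 49.5 ± 6.66 FPKM in lean livers, with a limma adjusted p of 0.0659.

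Heme, which every P450 enzyme needs, is made by a chain of enzymes. Of 12 tested genes of heme synthesis and breakdown, 1 rose and 0 fell, where 25.6% of all genes tested were called in either direction. Cpox, which makes protoporphyrinogen, had 42.5, 40.2, 36.6 and 45.0 FPKM in db/db samples, against 22.6, 26.7, 16.1 and 27.1 FPKM in lean samples. The groups lay apart (log2 fold change 0.82 ± 0.16 SE, limma adjusted p = 0.00369). Alas1, the rate-limiting enzyme of the pathway, averaged 313 ± 120 FPKM in db/db and 203 ± 58.3 FPKM in lean livers, with db/db 1 highest at 483 FPKM, and was not called (limma adjusted p = 0.127). Without db/db 3 the count of called heme genes was 2.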

How the data were processed

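Liver RNA of 4 db/db and 4 lean male samples was sequenced from ribosome-depleted, stranded libraries, per the labels' protocols. The tools named in the submitters' processing notes, without their roles, are HISAT2 2.0.4, cutadapt 1.9.3, Cuffdiff and Cufflinks, and the build is mm10. The authors' deposited table gave FPKM per gene, and the transcript length behind it is not stated there. The second deposited measure, headed counts, was a normalized signal: each library's estimated fragments over its own size factor, since 91.3 to 92.0% of values below 2000 steps were whole multiples of 1 step, within 0.05 of a step. Dividing by the step gave estimated fragments, used for depth and voom only.

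Samples were grouped by title. Rows of the same symbol were summed (162 rows of 79 symbols). Genes with FPKM of at least 0.5 in at least 2 of 8 samples were tested on log2(FPKM + 1) with limma 3.58.1 in R 4.3.3 (eBayes with mean trend), 2-sided, with Benjamini-Hochberg adjustment over 11573 genes and a threshold of 0.05. Fold changes are db/db minus lean, and the added 1 understates changes of low genes. The fit was tested on simulated data. The members and lists were chosen with earlier results of these data known. Values per sample are given for Por and, in each subfamily, for the most abundant kept gene, the called gene of smallest adjusted p and the called genes of largest rise and fall (18 genes). Other kept genes are given by means, and the further genes with values per sample were chosen after their values were seen. Of the regulator, electron transfer, heme and receptor target lists, called genes are named. Uncalled ones that are named were chosen after their values were seen. List and subfamily counts carry no test.

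Paralogs were compared by 50-base windows of GENCODE M21 transcripts matched by gene ID, and joined at 10% of windows. Promoters are RefSeq windows of 250 bases before to 50 after the start (GRCm38.p6), with 32 of 39 kept genes matched. Libraries of 1 group differed far beyond sampling noise, so each counted once. Alternatives were other pseudocounts, filters, scaling, variance models, library weights, voom, the highest row of a symbol, a replicate block, leaving out each sample, and, chosen after seeing the data, sums of paralogs and counts without genes that pass the filter through 1 group. Depth ranged over the libraries from 12174824 to 16171661 estimated fragments. Figures were drawn with matplotlib 3.10.9.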

Additional observations from a re-analysis of the deposited data

Results flagged for a closer look

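In 3 of 96 groups of 4 samples (48 genes), 1 sample lay farther from the other 3 than Dixon's 95% limit allows, and chance alone marks about 1 group in 20. Cyp2c70, which makes muricholic acids in mice, had 346 FPKM in db/db 1, against 112 to 142 FPKM in the other db/db samples. Cyp3a16, a female-biased Cyp3a gene, had 1.98 FPKM in db/db 4, against 0.0357 to 0.262 FPKM in the other db/db samples. Cyp3a13 had 70.0 FPKM in lean 4, against 54.4 to 56.8 FPKM in the other lean samples. What set these samples apart was not tested.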

How the results depend on the processing

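Over all alternatives, 14 to 16 kept genes were called higher and 8 to 11 lower in db/db, beside 1343 to 2217 and 929 to 1383 of all genes. Of 26 called kept genes, 19 were called in every alternative that tested them, sums of paralogs aside, and the 7 others are named in the report. Of the 19, Cyp2c40 lost its call in its sum (log2 fold change 0.31, limma adjusted p = 0.241). Without the 3 genes that pass the filter through 1 group only, 15 were higher and 9 lower. Signs turned, over these alternatives, only for genes that were not called. With median-of-ratios scaling Cyp2d26 had a log2 fold change of -0.037. Cyp3a16 had -0.14 with a pseudocount of 0.1 and -0.36 with voom. With a sample left out, the log2 fold change ranged from -0.048 to 0.071 for Cyp2d26, -0.0041 to 0.24 for Cyp3a16, -0.011 to 0.42 for Cyp2c55, -0.13 to 0.27 for Cyp2c68, -0.071 to 0.23 for Cyp2j9 and -0.047 to 0.17 for Por. Summed with relatives, Cyp2c37 had 0.68, past the threshold, and Cyp2c67 had 0.31. The female-biased count was 2, not 4, with voom and robust limma. It was also 2 with the filter of 1 FPKM in 4 of 8, where only Cyp2c40 and Cyp2c69 were tested and both were called. The regulator count was 4, not 2, with median-of-ratios scaling, voom and library weights. The count of receptor targets was 1, not 2, with no filter, median-of-ratios scaling and the replicate block. With a sample left out these counts ranged from 3 to 4 (female-biased), 2 to 4 (regulators), 1 to 3 (receptor targets) and 1 to 2 (heme genes). The causes were not tested. Scaling moved the median log2 fold change of all genes from 0.04 to 0.00 (median-of-ratios) and 0.10 (voom). Replicate numbers did not pair the samples: deviations of same-numbered samples correlated at -0.20, 0.03, 0.10 and -0.01, and not every sample correlated best with its own number. With the replicate block, 14 kept genes were higher and 10 lower, and Cyp2c69 (limma adjusted p = 0.0524), Cyp2g1 (0.0626) and Tiparp (0.0556) lost their call. Depth limits Cyp1a1, Cyp2d11, Cyp3a16 and the lean values of Cyp3a41a and Cyp3a41b. These had 36 or fewer estimated fragments per sample, except Cyp3a16 in db/db 4. So had Cyp3a41a and Cyp3a41b in db/db 1, Cyp2d12 and Cyp2u1 in db/db 2 to 4, and Cyp2c39 and Cyp2g1 in lean 2 to 4.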
